A study of Mus musculus with 8 samples.

Results

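The AP-1 genes of the mouse retina, taken here as Fos, Fosb, Fosl1 and Fosl2 of the Fos family, Jun, Junb and Jund of the Jun family, and their partners Atf3, Batf and Maff, were followed across the retinas of 4 wildtype (WT) and 4 Lpcat1 knockout (KO) samples. Members were found by the RefSeq transcript accession that the array files give for each probe. All 10 genes had a probe, and together they held 11 of the 55681 probes on the array. Lpcat1 encodes lysophosphatidylcholine acyltransferase 1, which makes phosphatidylcholine from lysophosphatidylcholine and an acyl-CoA. All samples were total RNA of the whole retina of C57BL/6 mice at 2 weeks of age, and the genotypes differed by the loss of Lpcat1 in every tissue. Per the study's methods, the KO line was generated on C57BL/6N and then crossed to C57BL/6J to take out the rd8 allele, a retinal degeneration allele of that substrain, and animals homozygous for rd8 were not used. The labels do not say whether each sample came from a separate animal, so the p-values measure only the spread between these samples, part of which may be technical.

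AP-1 is a dimer of basic leucine zipper (bZIP) proteins that binds short DNA motifs. Jun proteins pair with themselves or with a Fos protein, whereas Fos proteins need a partner, and Atf3, Batf and the small Maf protein Maff join the same network with other partners and other preferred motifs. Most of these genes are immediate early genes: their transcripts are scarce in resting cells and appear within minutes of depolarisation, growth factors or stress, before new protein has been made. In the retina, Fos is known to be induced by light and to take part in light-induced photoreceptor death.

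The promoters of the 5 members that differed between genotypes are shown because immediate early genes are read out through short motifs near their start. Each window runs from 250 bases before to 50 bases after the start in RefSeq (mouse build GRCm38.p6), 5′ to 3′ along the gene. Capitals mark TGACG, the core that CREB and ATF proteins recognise, or its complement CGTCA, and in Jun the motif TGACATCA.
Fos (chr12:85473640-85473939, forward strand): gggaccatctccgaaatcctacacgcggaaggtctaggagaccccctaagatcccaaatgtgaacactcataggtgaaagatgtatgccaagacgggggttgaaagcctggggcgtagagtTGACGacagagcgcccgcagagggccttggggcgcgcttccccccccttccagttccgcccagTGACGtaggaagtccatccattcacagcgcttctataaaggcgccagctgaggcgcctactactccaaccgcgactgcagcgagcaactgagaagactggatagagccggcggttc
Fosb (chr7:19309996-19310295, reverse strand): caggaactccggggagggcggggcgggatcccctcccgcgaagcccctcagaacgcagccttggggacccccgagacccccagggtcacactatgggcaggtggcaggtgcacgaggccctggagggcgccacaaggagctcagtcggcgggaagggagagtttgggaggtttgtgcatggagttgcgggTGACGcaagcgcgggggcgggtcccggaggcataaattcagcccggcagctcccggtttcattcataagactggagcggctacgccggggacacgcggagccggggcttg
Jun (chr4:95052173-95052472, reverse strand): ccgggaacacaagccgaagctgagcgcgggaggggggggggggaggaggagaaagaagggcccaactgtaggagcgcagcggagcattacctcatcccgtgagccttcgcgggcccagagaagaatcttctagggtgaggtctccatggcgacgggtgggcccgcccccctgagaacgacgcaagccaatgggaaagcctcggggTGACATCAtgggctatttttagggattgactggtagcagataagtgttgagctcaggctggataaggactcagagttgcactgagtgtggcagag
Junb (chr8:84978699-84978998, reverse strand): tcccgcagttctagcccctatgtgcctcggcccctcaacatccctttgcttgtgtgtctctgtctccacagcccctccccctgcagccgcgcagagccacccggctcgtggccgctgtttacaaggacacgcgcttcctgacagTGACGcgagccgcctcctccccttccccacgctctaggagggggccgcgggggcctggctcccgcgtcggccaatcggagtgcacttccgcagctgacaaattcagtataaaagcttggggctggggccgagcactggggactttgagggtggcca
Atf3 (chr1:191183284-191183583, reverse strand): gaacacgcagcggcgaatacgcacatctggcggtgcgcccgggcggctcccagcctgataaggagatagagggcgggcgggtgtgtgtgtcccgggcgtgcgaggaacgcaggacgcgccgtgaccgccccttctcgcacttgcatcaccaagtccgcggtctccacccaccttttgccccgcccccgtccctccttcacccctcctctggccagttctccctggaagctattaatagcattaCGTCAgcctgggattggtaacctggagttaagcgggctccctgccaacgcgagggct

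Both strands were searched in 32851 windows of this length. The median GC content of all windows was 52.7%, against 58.7% to 68.3% in the 5 shown, and the counts were not adjusted for it. The core TGACG lay in 20.8% of all windows and in 7 of the 11 member windows. It was found in 6 of the 9 member genes that had a window, among them Fos, Fosb, Junb and Atf3. The Fos window held it at -129 to -125 and at -66 to -62, the second of these within the longer TGACGT, which 7.51% of all windows held. The whole palindrome TGACGTCA was found in 1.79% of all windows and, among the members, only in Maff. TGACATCA, the AP-1-like letters known from the Jun promoter, stood at -45 to -38 in Jun and at the same distance in a window of Maff, and was present in 3.62% of all windows. The AP-1 motif itself, TGAGTCA or its complement TGACTCA, was in 5.2% of all windows and in 0 of the 11 member windows, and the CArG box, to which serum response factor binds, was in 1.63% and 0. Jun, Jund and Fosl2 had no TGACG in this window. These matches describe letters and not sites in use. A motif further than 250 bases before the start lies outside the windows, so a 0 does not mean that a gene lacks it.

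Levels are log2 of the processed signal of a probe minus the 75th percentile of the same array, so a level of 0 is the signal at that percentile, and the level of one probe cannot be set against that of another. All 8 arrays lay on 1 slide and were read in 1 scan, with the WT arrays in one row and the KO arrays in the other, so row and genotype cannot be told apart. The number of arrays limits the precision. The signal at the 75th percentile was 638 to 738, and 33110 to 36366 probes were well above background. The single Lpcat1 probe stood at -0.42, -0.39, -0.43 and -0.38 in WT replicates 1 to 4 and at -0.88, -0.92, -0.90 and -0.78 in KO. Every KO value was below every WT value, a difference of -0.46 (SE 0.04, limma adjusted p = 0.0036). The position of this probe relative to the deletion is not known here. In whole tissue, fewer cells of a type and less RNA per cell cannot be told apart, which holds for every value given here.

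Of the 11 member probes, 7, each of a different gene, cleared the background on every WT array, every KO array or both, and were tested. Fos, Fosb, Jun, Junb and Atf3 were higher in KO, by 1.41-fold to 2.90-fold. Called means a Benjamini-Hochberg adjusted p under 0.05 in limma, taken over all 33972 tested probes, and a fold change over 1.2. So 5 member probes were called higher and 0 lower, where 1.38% of all tested probes were called higher, 1.54% lower and 2.92% either way. All 7 tested members had a higher mean in KO, against 38% of all tested probes, and their median difference was 0.58, against -0.04. In 6 of the 7 every KO level lay above every WT level, which was true of 6.05% of all tested probes, while 17.5% had no overlap in one direction or the other. Fosl2 and Jund were not called, and Fosl1, Batf, Maff and a second Fosl2 probe were too dim to be tested.

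**Figure D1:**
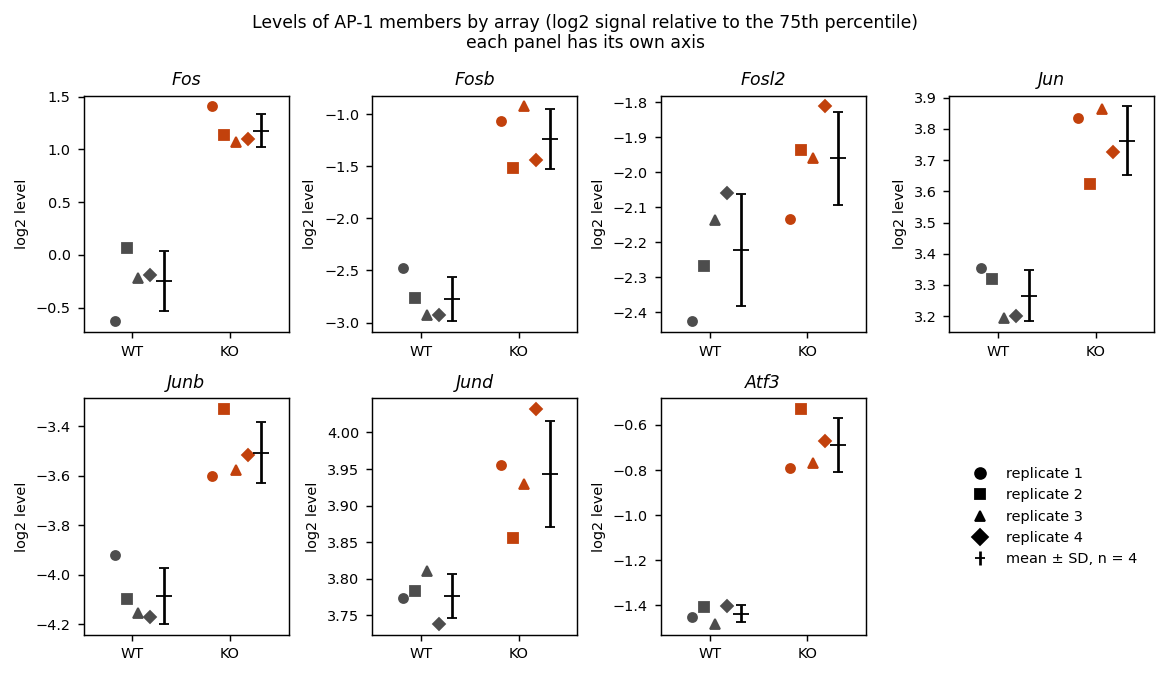
Level of each tested member probe (log2, 75th percentile of the array as 0) on the 4 WT and 4 KO arrays; each point is 1 array and each bar the mean with its SD. The KO points lie above all WT points in every panel except that of Fosl2.

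Fos and Fosb showed the largest changes of the family. Fos encodes the founding Fos protein and is the classic marker of recently stimulated neurons. Its level (NM_010234) was -0.63, 0.06, -0.22 and -0.19 in WT replicates 1 to 4 and 1.41, 1.13, 1.07 and 1.1 in KO replicates 1 to 4. The highest WT array lay 1.00 below the lowest KO array, and WT replicate 1 was the lowest of all. The means were -0.24 ± 0.29 in WT and 1.18 ± 0.16 in KO (SD, n = 4 each). The difference was 1.42 (SE 0.14, 95% confidence interval 1.09 to 1.75, limma adjusted p = 0.00467), a 2.68-fold increase with an interval of 2.13 to 3.36. The Fos probe ranked 16 of all 33972 tested probes by the size of its increase. An exact two-sided permutation test of the 4 against 4 levels gave p = 0.0286, the smallest that 4 arrays a genotype allow, and gave the same p for each of the other 5 members whose groups did not overlap.

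The Fos probe was printed 10 times on each array, which separates the error of a spot from that between samples. The SD among the spots of 1 array was 0.04 to 0.08 in WT and 0.05 to 0.07 in KO, while the SD between arrays was 0.29 and 0.16. Single spots ran from -0.76 to 0.18 in WT and from 0.97 to 1.5 in KO, so no spot of one genotype reached the range of the other. The low level of WT replicate 1 was thus seen in all of its spots used.

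**Figure D2:**
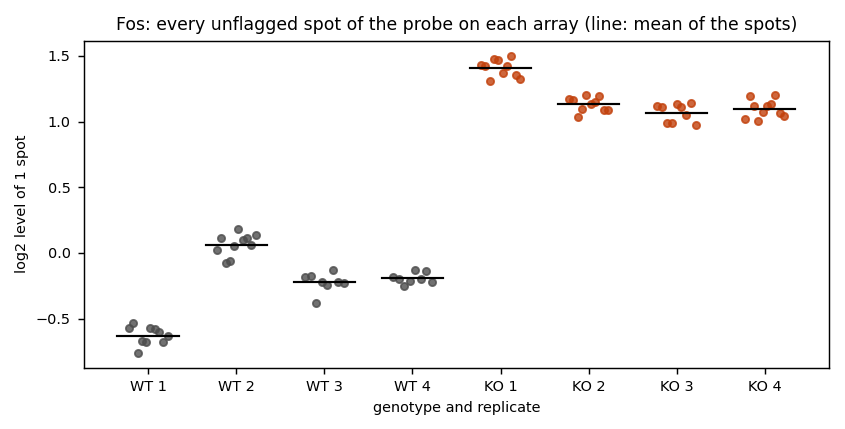
Level of every Fos spot used (log2, 75th percentile of the array as 0) on each of the 8 arrays; points are single spots of the same probe and lines the mean of the array. Spots of 1 array cluster within an SD of 0.04 to 0.08, and the WT arrays differ among themselves by more than that.

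Fosb encodes a second Fos protein, whose truncated splice form ΔFosB is known to persist in neurons after repeated stimulation. The probe does not tell here which splice form was measured. Its level (NM_008036) was -2.48, -2.77, -2.93 and -2.93 in WT and -1.07, -1.52, -0.93 and -1.44 in KO. The groups were 0.96 apart, with KO replicates 1 and 3 above KO replicates 2 and 4. Fosb rose by 1.54 on the log2 scale (SE 0.16, 95% confidence interval 1.18 to 1.89, limma adjusted p = 0.00475), or 2.90-fold with an interval of 2.26 to 3.71. The probe was dim in WT, and with the normexp background correction, which adds an offset, the same difference was 0.996 and still called.

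Fosl2, which encodes Fra-2, a Fos protein without the activation domain of Fos, did not pass the test. Its brighter probe (NM_008037) read -2.42, -2.27, -2.14 and -2.06 in WT and -2.13, -1.94, -1.96 and -1.81 in KO. The groups overlapped, as KO replicate 1 lay at the level of WT replicate 3. The difference was 0.26 (SE 0.09, 95% confidence interval 0.05 to 0.48, limma adjusted p = 0.139). Its second probe cleared the background on 0 of 8 arrays, and its signal ranged from 5.75 to 22.1 in the WT arrays and from 6.24 to 18.3 in the KO arrays. Fosl1, which encodes Fra-1 and is itself a target of Fos, was likewise at background on every array, its signal ranging from 13.1 to 15.2 in the WT arrays and from 7.75 to 16.5 in the KO arrays. No fold change can be given for either probe.

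In the Jun family, Jun and Junb were higher in KO and Jund was not called. Jun encodes c-Jun, the main partner of Fos and the substrate of the Jun N-terminal kinases in stressed neurons. Its level (NM_010591) was 3.35, 3.32, 3.19 and 3.20 in WT and 3.83, 3.62, 3.86 and 3.73 in KO. The groups did not overlap and the lowest KO array was 0.27 above the highest WT array. Jun rose by 0.50 on the log2 scale (SE 0.07, 95% confidence interval 0.34 to 0.65, limma adjusted p = 0.0109), a 1.41-fold increase with an interval of 1.27 to 1.57.

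Junb encodes a Jun protein that activates less strongly and often counters c-Jun. Its level (NM_008416) was -3.92, -4.10, -4.15 and -4.17 in WT and -3.60, -3.33, -3.58 and -3.51 in KO. All KO arrays were above all WT arrays, by at least 0.32, and KO replicate 2 was the highest. Junb rose by 0.58 (SE 0.08, 95% confidence interval 0.40 to 0.76, limma adjusted p = 0.0109), or 1.49-fold with an interval of 1.32 to 1.69. These were dim spots, whose signal ran from 38.9 to 44.1 in the WT arrays and from 53.4 to 73.4 in the KO arrays, and under the normexp correction the difference was 0.35 and still called.

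Jund encodes the Jun protein that most tissues make without stimulation. Its level (NM_010592) was 3.77, 3.78, 3.81 and 3.74 in WT and 3.95, 3.85, 3.93 and 4.03 in KO. The groups were 0.04 apart and so just failed to overlap. The difference of 0.17 (SE 0.05, 95% confidence interval 0.06 to 0.27) had a limma adjusted p of 0.0718 and was not called. Under normexp it was 0.09 (adjusted p = 0.327). Under quantile normalization it was 0.20 (adjusted p = 0.0471), under cyclic loess 0.21 (adjusted p = 0.0446) and in limma with a trend and robust eBayes 0.17 (adjusted p = 0.0152), so in these 3 settings it was the minimum fold that kept Jund from being called.

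Atf3, a stress-induced bZIP gene that is known to mark injured neurons and whose protein pairs with Jun, rose with a small spread. Its level (NM_007498) was -1.45, -1.41, -1.48 and -1.40 in WT and -0.79, -0.53, -0.77 and -0.67 in KO. The WT arrays lay within 0.08 of each other and 0.62 below the lowest KO array. The difference was 0.75 (SE 0.06, 95% confidence interval 0.61 to 0.89, limma adjusted p = 0.00254), a 1.68-fold increase with an interval of 1.52 to 1.85. Atf3 had the smallest adjusted p of the family and ranked 21 of all tested probes by p, while Fos ranked 55 and Fosb 58.

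Batf and Maff were at the limit of detection. Batf, which acts with Jun proteins in lymphocytes, was printed 10 times on each array and cleared the background on 1 WT array and 0 KO arrays, its signal running from 18.8 to 24.2 in the WT arrays and from 19.2 to 23.5 in the KO arrays. Maff encodes a small Maf protein that lacks an activation domain. Its signals were 16.6, 17.8, 11.1 and 20.6 in WT and 16.9, 27.1, 22.7 and 48.6 in KO, and it was well above background on KO replicate 4 alone. Neither gene was tested.

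**Figure D3:**
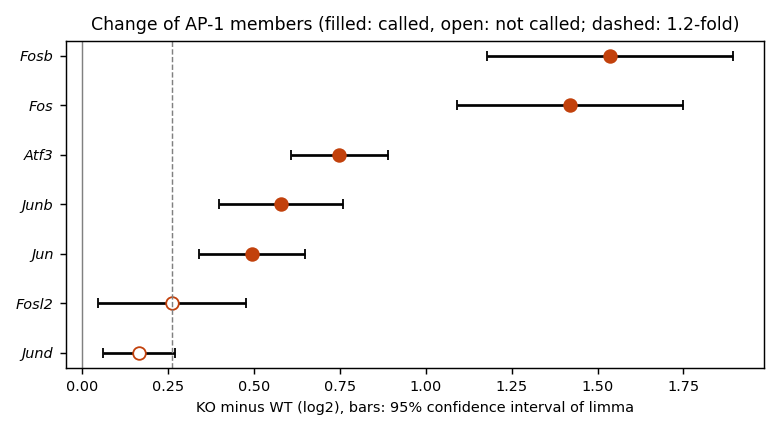
KO minus WT of each tested member probe (log2, limma), with its 95% confidence interval; filled points were called. Fosb and Fos lie at 1.54 and 1.42, Atf3, Junb and Jun between 0.50 and 0.75, and Fosl2 and Jund at 0.26 and 0.17.

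To ask whether members changed by different amounts, the per-array difference between 2 probes was compared between genotypes for 8 pairs with two-sided exact permutation tests. The measured change of the Fos probe was larger than those of the Fosl2, Jun, Junb and Atf3 probes. These probes differ in brightness, and the part of that in the gaps was not tested. The difference of Fos exceeded that of Fosl2, which was not called, by 1.16 (SE 0.18), that of Jun by 0.93 (SE 0.18), that of Junb by 0.84 (SE 0.22) and that of Atf3 by 0.67 (SE 0.18) on the log2 scale. The differences of Jun and Junb exceeded that of Jund, which was not called, by 0.33 (SE 0.07) and 0.41 (SE 0.11). Each of these 6 exact tests gave p = 0.0286, or 0.0381 after Benjamini-Hochberg adjustment over the 8 pairs, and in each the 4 KO values lay above the 4 WT values. For Fosb against Fos the difference was 0.11 (SE 0.27, exact p = 0.543, adjusted 0.62), and for Junb against Jun 0.08 (SE 0.12, exact p = 0.629, adjusted 0.629), so these 2 pairs were not separated at this number of arrays. Under normexp, which changes dim probes most, both turned sign, to -0.29 and -0.15, and neither passed, while Junb exceeded Jund by 0.265 and still passed. There Fos exceeded Fosl2 by 1.08, Jun by 0.78, Junb by 0.93 and Atf3 by 0.70, and each still passed.

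No single order of the KO arrays was shared by all the members. KO replicate 1 was the highest array for Fos and the lowest for Fosl2, Junb and Atf3. KO replicate 2 was the highest for Junb and Atf3 and the lowest for Fosb, Jun and Jund. KO replicate 3 was the highest for Fosb and Jun and the lowest for Fos, and KO replicate 4 was the highest for Fosl2 and Jund. Junb and Atf3 had the same order of all 4 KO arrays, as did Fosb and Jun. Among 7 members, matches in the order of 4 arrays can arise by chance, which was not tested. The 4 KO arrays spanned 0.59 in Fosb, 0.34 in Fos and 0.18 in Jund. No KO array was the highest or the lowest for more than 3 of the 7 members, and with 4 arrays no correlation was computed.

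**Figure D4:**
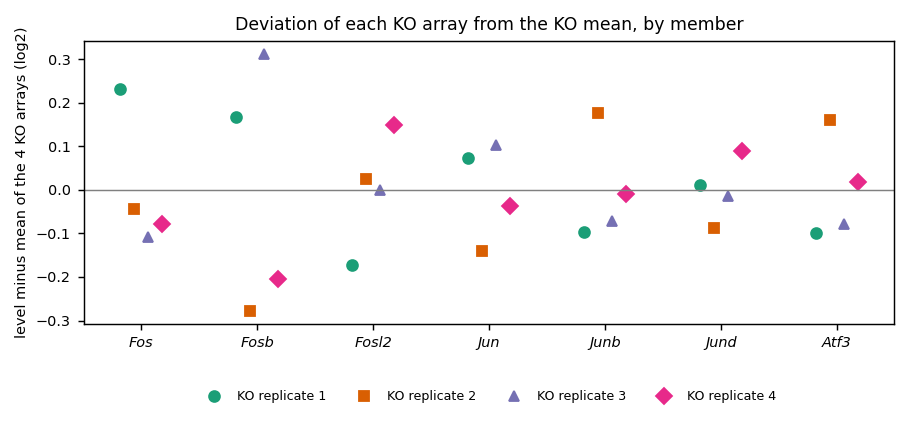
Deviation of each KO array from the mean of the 4 KO arrays (log2), for each tested member; each colour and shape is 1 KO replicate. KO replicate 1 is highest for Fos and lowest for Fosl2, Junb and Atf3, and the order of the arrays is the same in Junb and Atf3 and in Fosb and Jun, but differs between these pairs and the other members.

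Over all 8 arrays, the likeness of 2 probes was measured as the root mean square (RMS) difference of their mean-centred levels, among 19681 tested probes with a gene symbol. Most like Fos were Ccl6, a chemokine (RMS 0.22), complement component C4b (0.25) and the interferon-induced Ifit3b (0.26). Most like Fosb were Poteg (0.28), Ccl6 (0.31) and Csrnp1, itself an immediate early gene (0.31). Most like Atf3 were the metallothionein Mt2 (0.07), Tyrobp, an adaptor protein of microglia (0.07), and Mt1 (0.09). Most like Junb were the keratin Krt18 (0.08), the transcription factor Klf15 (0.09) and Pcolce (0.09). Every one of these genes was called higher in KO, and the measure follows the genotype difference first. The call of Pcolce was lost without any one WT array and without KO replicate 2 or 4. Under normexp the differences of Ccl6, Ifit3b and Poteg, dim probes at 1.18, 1.14 and 1.24, were 0.60, 0.69 and 0.49, and all were still called. Within the family, the closest pairs were Junb and Atf3 (0.12), Fosl2 and Jund (0.14) and Jun and Junb (0.15), and Fos and Fosb differed by 0.34.

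Lists of genes related to AP-1 by structure or by signalling were also counted. With 2.2% of all tested genes called higher and 1.77% lower, these lists are too small to set their counts apart from that share. Of 29 other bZIP genes, such as the Creb, Maf, Bach and remaining Atf genes, 26 were tested and 0 were called in either direction by limma or by the methods' t-test, although 7 had an unadjusted p under 0.05 in the higher and 4 in the lower direction. Over all tested genes, the methods' t-test at the same limits called 1.71% higher and 1.29% lower. The median difference of the 26 bZIP genes was 0.03, against -0.02 over the 14939 tested genes, and 14 had a higher mean in KO. The share of all tested genes with an unadjusted limma p under 0.05 was not taken. So no excess can be read from the 7 and 4 bZIP genes at that limit. Such p-values were common: the brighter Fosl2 probe, at an unadjusted limma p of 0.023, ranked 5630 of all 33972 tested probes by p. Nrl, the bZIP factor that specifies rods, read -0.21 (SE 0.04, limma adjusted p = 0.0219), which is under the minimum fold; it was singled out after its value was seen. Of 46 kinases and transcription factors known to act upstream of AP-1, such as Mapk, Map2k and Map3k kinases, Elk1 and Srf, 45 were tested. Here 2 were called higher and 0 lower, where 2.2% of all tested genes were called higher and 1.77% lower. The methods' t-test called 0. An unadjusted limma p under 0.05 was seen for 6 in the higher and 3 in the lower direction, again without a share of all genes. The 2 called were Mef2c, a transcription factor of the Jun promoter, at 0.31 (SE 0.06, limma adjusted p = 0.0352), and Map3k5, a stress kinase that activates JNK, at 0.31 (SE 0.07, adjusted p = 0.041) on 1 probe, while its brighter probe read -0.02. Under normexp neither was called, at 0.26 for Mef2c and 0.16 for Map3k5. The limma calls of both were also lost on leaving out any one array other than KO replicate 3.

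Among 36 genes known as AP-1 targets, 25 were tested, 4 were called higher and 0 lower, beside 2.2% and 1.77% of all tested genes, and the median difference was 0.06, against -0.02. In this list 7 genes had an unadjusted limma p under 0.05 in the higher and 3 in the lower direction. The share of all genes at that limit was not taken. The methods' t-test called 3 higher and 0 lower, where it called 1.71% and 1.29% of all tested genes. The 4 were the metallothioneins Mt2 and Mt1, which bind zinc and copper, the secreted phosphoprotein Spp1 and the matrix metalloproteinase Mmp9. Mt2 rose by 0.75 (SE 0.07, limma adjusted p = 0.00425), Mt1 by 0.66 (SE 0.06, adjusted p = 0.00308) and Spp1 by 0.65 (SE 0.07, adjusted p = 0.00548), or by 0.36 under normexp. Mmp9 rose by 0.31 (SE 0.07, adjusted p = 0.0455), and this call was lost on leaving out any one array other than KO replicate 1. Metallothioneins and Spp1 respond to other factors too. The targets not tested, 11 in all, included Mmp3, Mmp13, Ccl2, Il6 and Lif, which were too dim.

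Genes of the wider immediate early class were also called higher in KO. Of 40 listed, 35 were tested, 11 were called higher and 1 lower, where 2.2% of all tested genes were called higher and 1.77% lower, and the median difference was 0.16, against -0.02. The largest was the zinc finger gene Egr1 at 2.03 (SE 0.34, limma adjusted p = 0.0206), followed by the orphan nuclear receptor Nr4a1 at 1.35 (SE 0.21, adjusted p = 0.0162). Csrnp1 rose by 1.02 (SE 0.05, adjusted p = 0.000237), Npas4, which is induced by neuronal activity, by 0.73 (SE 0.10, adjusted p = 0.0118) and the matricellular gene Ccn2 by 0.62 (SE 0.11, adjusted p = 0.0229). Also called higher, and named beyond the 5 largest so that the list of calls is whole, were Arc, Ier2, Klf10, Gadd45b, Per1 and Sgk1. Trib1, the only one called lower, fell by 0.43 and was named after its value was seen. The call of Egr1 was lost without WT replicate 1, 3 or 4 or without KO replicate 2, that of Nr4a1 without WT replicate 3, and that of Ccn2 without WT replicate 1, 3 or 4 or without KO replicate 2, 3 or 4. Those of Arc and Gadd45b were lost without any one WT array or without KO replicate 2 or 4, and that of Klf10 without WT replicate 1, 2 or 3 or KO replicate 2 or 3. Under normexp these 3 genes were not called either, at 0.23 for Arc, 0.25 for Gadd45b and 0.25 for Klf10. Egr2, Egr3, Nr4a3, Zfp36 and Ptgs2 were too dim to be tested.

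**Figure D5:**
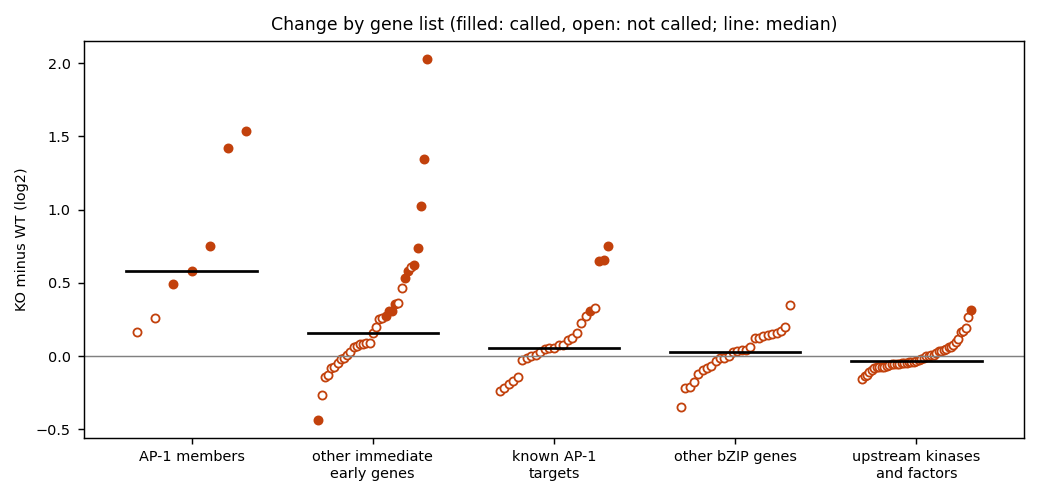
KO minus WT (log2) of every tested gene in the AP-1 family and in 4 lists of related genes, 1 point per gene on its brightest probe; filled points were called and horizontal lines are list medians (the called Map3k5 probe is not its brightest and is not shown). The medians are 0.58 for the family, 0.16 for other immediate early genes, 0.06 for AP-1 targets, 0.03 for other bZIP genes and -0.03 for upstream genes.

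Markers of several retinal cell types also moved with genotype, and are given beside the AP-1 values. Over all tested genes, 2.2% were called higher and 1.77% lower, and 42.2% had a higher mean in KO. Of the 7 rod markers reported, 2 were called lower and all 7 had a lower mean. Sag (rod arrestin) was called lower at -0.36 (SE 0.04, limma adjusted p = 0.00517) and Nr2e3, a rod transcription factor, at -0.50 (SE 0.08, adjusted p = 0.0212), while Gnat1, the rod transducin, read -0.04 (SE 0.04, adjusted p = 0.604). For Müller glia, the radial glia of the retina, 2 of 6 markers (Apoe and Kcnj10) were called higher, and their summed signal, in multiples of the 75th percentile signal, ran from 180.4 to 188.8 (WT) and from 211.1 to 218.3 (KO). For cones 2 of 5 (Arr3 and Opn1sw) were called higher (the methods' t-test called 1 of the 5, and 1.71% of all tested genes), with sums of 130.2 to 135.3 and 153.9 to 163. Of 11 microglia and macrophage markers tested, 6 were called higher, Tyrobp, C1qc and C1qb among them, and all 11 had a higher mean, but their summed signal overlapped between WT (28.8 to 36.6) and KO (32.4 to 38.5). Itgam, whose difference was 0.02 (SE 0.14, adjusted p = 0.949), made up 55.1% to 70.2% of that sum. Without it, a step chosen after the values were seen, the sum of the other 10 ran from 10.8 to 11.7 (WT) and from 14.1 to 14.6 (KO), with no overlap. Sums were also higher on every KO array than on every WT array for amacrine cells (72.9 to 74.5 in WT, 79.5 to 82.7 in KO), astrocytes (2.80 to 3.76, 3.82 to 4.06), ganglion cells (66.1 to 69.3, 71.9 to 72.8) and bipolar cells (208.8 to 215.2, 215.6 to 220.9). No marker of these types was called: 0 of 4 for amacrine cells, 0 of 3 for astrocytes and 0 of 5 each for ganglion and bipolar cells. Of single tested probes, 6.05% had every KO level above every WT level, and no such share was taken for sums. For endothelium the sums ran from 9.05 to 10.8 (WT) and from 8.34 to 8.72 (KO). Those for lens (0.95 to 1.12 and 0.93 to 1.16) and red blood cells (6.99 to 9.04 and 7.60 to 10.4) overlapped between genotypes. The sums for horizontal cells, pericytes, retinal pigment epithelium and neutrophils overlapped too. Which cells held the Fos, Fosb, Jun, Junb and Atf3 transcripts cannot be told from whole retina, and the part of these shifts in their differences was not tested.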

How the data were processed

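Total RNA from the whole retina of 4 WT and 4 KO samples (groups and numbers from the labels) was hybridised by the authors in 1 colour to Agilent SurePrint G3 mouse arrays and quantified with Feature Extraction 10.7.1.1. In the deposited files of the scanner, each of the 62976 spots of an array has an intensity on a linear scale, already background-subtracted. The authors applied a 75th percentile shift in GeneSpring, and their deposited series table holds these values as log2. Array by array it differed from the levels computed here by a near constant 0.12 to 0.15, and it served as an alternative. No per-sample column was left out (0 columns).

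The level of a spot was its log2 processed signal after subtracting the log2 75th percentile over the 59305 non-control spots of the array. Outlier-flagged spots (86 to 147 an array) and 3671 control spots were left out, repeated spots were averaged on the log2 scale, and a probe was tested when it cleared the background on all 4 WT arrays, all 4 KO arrays or both (33972 of 55681). No spot was saturated (0). Symbols came from RefSeq (GRCm38.p6) by unversioned accession for 47.4% of probes. The array design uses mm9, so that table gave names only, and the promoter windows came from RefSeq sequence tables of GRCm38.p6. Fosl1 had no window. Genotypes were compared with limma 3.58.1 in R 4.3.3 with genotype as the sole term and p-values adjusted after Benjamini and Hochberg across the tested probes. The steps were tested on simulated data. For single values and pairs of members, exact permutation tests (two-sided) ran over the 70 splits of the arrays. For a gene with several probes, the brightest over all arrays gave its value, and a gene was called when 1 probe was. The genes named are the members, Lpcat1, up to 5 called genes of each list by size of change, the 3 genes most like Fos, Fosb, Atf3 and Junb, and up to 3 markers of a cell type. Exceptions are stated. Of the cell type markers, 1 is not reported here, nor is the summed signal of its list. The members and lists were chosen with earlier results of these data known. Alternatives were 4 other scalings, normexp on median signals (offset 50), the authors' values, other filters on dim probes, flagged spots kept, limma with array weights or with a trend, the methods' t-test, other thresholds, the replicate number as a block, and leaving out each array in turn.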

Additional observations from a re-analysis of the deposited data

How the results depend on the processing

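Fos, Fosb and Atf3 kept their direction and their call in all 22 settings of the fit, and Jun and Junb in 21. With the replicate number as a block, Jun (0.50, adjusted p = 0.0518) and Junb (0.58, adjusted p = 0.0527) were no longer called, so 3 member probes were called in place of 5, and 3 with a fold change over 1.5. The deviations of same-numbered samples from their group means correlated weakly (r of 0.25, 0.07, 0.04 and 0.11), and as the labels name nothing that same-numbered samples share, the numbers were not taken as pairs, although 7 of the 8 samples correlated best with the sample of their own number, a hint from the data and not from the design. The exception was WT replicate 3. Leaving out each array kept 5 member probes called, with differences of 1.29 to 1.52 for Fos, 1.43 to 1.64 for Fosb, 0.70 to 0.78 for Atf3, 0.46 to 0.54 for Jun and 0.52 to 0.63 for Junb. Fosl2 and Jund were called in 0 settings of the fit at the fold minimum. The difference between Fosb and Fos turned to -0.29 under normexp (adjusted exact p = 0.229), and leaving out an array gave -0.03 to 0.34, the lowest being -0.0255 without KO replicate 3. That between Junb and Jun turned to -0.15 under normexp (adjusted exact p = 0.163), and leaving out an array gave -0.02 to 0.14, the lowest being -0.021 without KO replicate 2. With 3 arrays against 4 the exact test cannot go below 0.0571, so these are values only.

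Over all probes, 992 were called, against 246 with no filter on dim probes, 138 with a fold change over 1.5, 1869 with no minimum fold, 395 with the block and 369 to 1183 without single arrays, the lowest without WT replicate 2. Upstream genes called higher numbered 1 under the median shift, 0 under normexp, with no filter, by the methods' t-test, with a fold over 1.5 and with the block, 4 with no minimum fold, and 0 to 2 without single arrays. With no minimum fold, 2 other bZIP genes were called higher and 1 lower, and leaving out single arrays called 0 to 1 of them lower (1 without KO replicate 3). AP-1 targets called lower numbered 0 to 1 without single arrays (1 without WT replicate 1 or KO replicate 1). Other immediate early genes called higher numbered 5 with no filter, 5 with a fold over 1.5, 6 with the block and 5 to 12 without single arrays (5 without WT replicate 3), and 0 were called lower with a fold over 1.5. Other scalings moved the median difference of all probes from -0.04 to between -0.03 and -0.01. Dim probes, among them Junb, Fosb, Maff and Batf, rest on signals near background. The causes were not tested.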
